A study of Rattus norvegicus with 9 samples.

Results

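The genes described here are 10 components of the Wnt pathway in rat osteoblasts: the ligands Wnt5a, Wnt5b, Wnt2b and Wnt4, the receptor Ror2, the secreted antagonists Sfrp1, Sfrp2, Dkk3 and Wif1, and the feedback gene Axin2. They were chosen by name from the 19085 genes of the table, with earlier results of these data known. All 10 members were in the table and passed the filter on low counts, among 13256 genes tested. Wnt2b passed that filter only through the PD03 libraries, which are high for it, and a difference there had to follow.

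Messenger RNA was sequenced from primary osteoblasts of male Sprague-Dawley rats aged 24 hours after 7 days in osteogenic medium. The control group received induction medium alone, the thrombin group received 20 U/mL thrombin, and the PD03 group received 20 U/mL thrombin with 0.1 µM PD0325901, an inhibitor of the kinase MEK. Dexamethasone, ascorbic acid, β-glycerophosphate and serum were shared by all 3 groups, and no group received the inhibitor without thrombin. Each group had 3 libraries. The tissue field of the labels reads knee, although the cells were taken from calvaria according to the culture protocol. No source used here says whether the libraries came from separate animals, and p-values then measure only the spread between these samples, which may be technical.

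Wnt ligands are secreted lipid-modified proteins that bind Frizzled receptors. With the coreceptors Lrp5 and Lrp6 they stabilise β-catenin, which acts with TCF/LEF factors on targets such as Axin2, and this branch promotes bone formation. Wnt5a acts mainly outside that branch, through receptors such as Ror2, while secreted frizzled-related proteins, Wif1 and Dickkopf proteins act outside the cell, most of them by binding Wnt or its coreceptors.

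Total counts ran from 15447832 to 19841468 per library. Of 14 genes known to respond to MEK and Erk, 10 were called lower and 0 higher in PD03 against thrombin, where 6.31% and 9.61% of all genes were. The lower genes were led by Egr1 at 243 CPM with thrombin and 18.7 CPM with PD03 (log2 fold change -3.70), Phlda1 at 105 and 16.3 CPM (-2.70) and Etv4 at 14.5 and 2.37 CPM (-2.62). CPM is counts scaled to the library total after TMM adjustment. Osteoblast matrix genes were abundant, with Col1a1 at 47443 CPM in control, 42854 CPM with thrombin and 72132 CPM with PD03, and it took 6.78% to 6.96% of counts in the PD03 libraries against 4.18% to 5.05% in the others. Not all osteoblast genes followed Col1a1. Of 6 tested, 3 were called higher and 1 lower in PD03 against thrombin. Runx2 was the lower one, at 42.8, 51.1 and 32.1 CPM in control, thrombin and PD03 (log2 fold change -0.67 against thrombin). Alpl was scarce, at 1.67, 0.345 and 3.11 CPM. The late osteoblast markers Ibsp and Bglap were near absent, with at most 1 and 5 counts in any library.

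The promoter of Axin2 is shown because Axin2 is the standard reporter of β-catenin signalling, and that of Wnt5a because it is the most abundant ligand. Both are the 250 bases before the RefSeq start in build GRCr8, on the plus strand, chr10:94398535-94398784 for Axin2 and chr16:3703415-3703664 for Wnt5a. Both starts lie inside the annotated span of the gene, so other starts lie upstream of them. Capitals mark matches to the TCF/LEF letters ATCAAAG or TTCAAAG, here on the minus strand.

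Axin2: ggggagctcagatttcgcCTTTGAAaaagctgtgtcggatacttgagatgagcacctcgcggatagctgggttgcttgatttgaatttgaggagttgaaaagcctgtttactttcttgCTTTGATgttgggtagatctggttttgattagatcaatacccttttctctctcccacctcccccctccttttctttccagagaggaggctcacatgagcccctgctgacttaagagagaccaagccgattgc

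Wnt5a: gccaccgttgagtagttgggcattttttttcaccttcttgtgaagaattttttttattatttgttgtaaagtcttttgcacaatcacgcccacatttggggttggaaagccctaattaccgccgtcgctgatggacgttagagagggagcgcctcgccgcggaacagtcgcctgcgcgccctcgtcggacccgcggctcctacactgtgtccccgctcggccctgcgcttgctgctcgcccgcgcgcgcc

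Windows of 300 bases, 250 before the start and 50 after it, were matched for 7 of the 10 members, and none was matched for Wnt5b, Sfrp1 and Dkk3. Each was searched on both strands for the TCF/LEF letters, TGACTCA for AP-1, TGACGTCA for CRE and CCGGAAG for ETS. The Axin2 window held 2 TCF/LEF matches, 232 and 132 bases before the start, and the other 6 windows held no match to any of the 4 motifs. Among all 33469 promoters of that length, 8.73% held the TCF/LEF letters, 4.63% AP-1, 1.83% CRE and 8.75% ETS. A match describes letters in the window only.

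Wnt5a (ENSRNOG00000015618) was the leading ligand, and thrombin raised it while PD03 brought it to slightly under the control level. It stood at 95.2, 89.3 and 93.9 CPM in the control libraries, at 222, 229 and 229 CPM with thrombin and at 73.8, 78.1 and 82.6 CPM with PD03. The groups did not overlap. The rise with thrombin was 2.44-fold (log2 fold change 1.29, SE 0.04, adjusted p = 9e-26), and the level fell by 1.54 on the log2 scale from thrombin to PD03 (SE 0.05, adjusted p = 9.8e-29). PD03 lay 1.19-fold under control (log2 fold change -0.25, SE 0.05, adjusted p = 3.9e-05), which is short of the fold threshold of 0.58 on the log2 scale used for a call. The study picked Wnt5a from these samples, so its direction in these libraries is not independent evidence. Separately, the paper reports from western blots that thrombin raised Wnt5a protein and that PD03 weakened this effect. In bulk samples, fewer cells of a type and less RNA per cell cannot be told apart.

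Wnt5b (ENSRNOG00000008168), the close paralog of Wnt5a, was scarce. Its libraries held 16, 18 and 13 counts in control, 11, 26 and 18 with thrombin and 25, 21 and 17 with PD03. The groups overlapped in every comparison and no call was made, with adjusted p = 0.80 for thrombin against control, 0.59 for PD03 against thrombin and 0.40 for PD03 against control. The standard errors of its log2 fold changes were 0.35 to 0.37, so a change as large as 1.5-fold was not detectable at this depth. Wnt5b overlaps Fbxl14 and LOC134486631 in the RefSeq annotation, and reads of overlapping genes may not be told apart.

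Wnt4 (ENSRNOG00000013166), a ligand active in both branches depending on the cell, moved against Wnt5a. Its counts were 91, 84 and 46 in control, 30, 51 and 43 with thrombin and 224, 201 and 175 with PD03. In CPM, thrombin lay below control in every library, although 2.91 CPM in 1 control library came close to 2.80 CPM in 1 thrombin library. The fall with thrombin was 1.85-fold (log2 fold change -0.89, SE 0.21, adjusted p = 0.00082). PD03 raised Wnt4 4.99-fold over thrombin (log2 fold change 2.32, SE 0.18, adjusted p = 2.4e-14) and 2.69-fold over control (log2 fold change 1.43, SE 0.17, adjusted p = 1.8e-09). The PD03 libraries were above all control libraries as well as all thrombin libraries.

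Wnt2b (ENSRNOG00000014385), a ligand that activates β-catenin, was near its detection limit without the inhibitor. It held 2, 9 and 4 counts in control, 10, 4 and 2 with thrombin and 75, 65 and 71 with PD03. Control and thrombin overlapped throughout (adjusted p = 0.98), while every PD03 library was above all 6 others. PD03 was 13.3-fold above thrombin (log2 fold change 3.73, SE 0.38, adjusted p = 4.1e-11) and 13.6-fold above control (log2 fold change 3.76, SE 0.39, adjusted p = 8.9e-11). These p-values are no independent support, since Wnt2b was tested only through its PD03 libraries. Because the baseline is a few counts, leaving out single libraries moved the log2 fold change against thrombin from 3.36 to 4.56.

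Ror2 (ENSRNOG00000053232), the receptor tyrosine kinase that binds Wnt5a, followed the same order as its ligand with much smaller steps. It measured 67.9, 74.4 and 72.4 CPM in control, 84.2, 78.7 and 87.4 CPM with thrombin and 68.3, 68.4 and 61.5 CPM with PD03. Thrombin libraries lay above all others. The log2 fold change was 0.22 for thrombin against control (SE 0.06, adjusted p = 0.0017) and -0.34 for PD03 against thrombin (SE 0.06, adjusted p = 2.1e-06), both short of the fold threshold, and -0.11 for PD03 against control (adjusted p = 0.10).

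**Figure D1:**
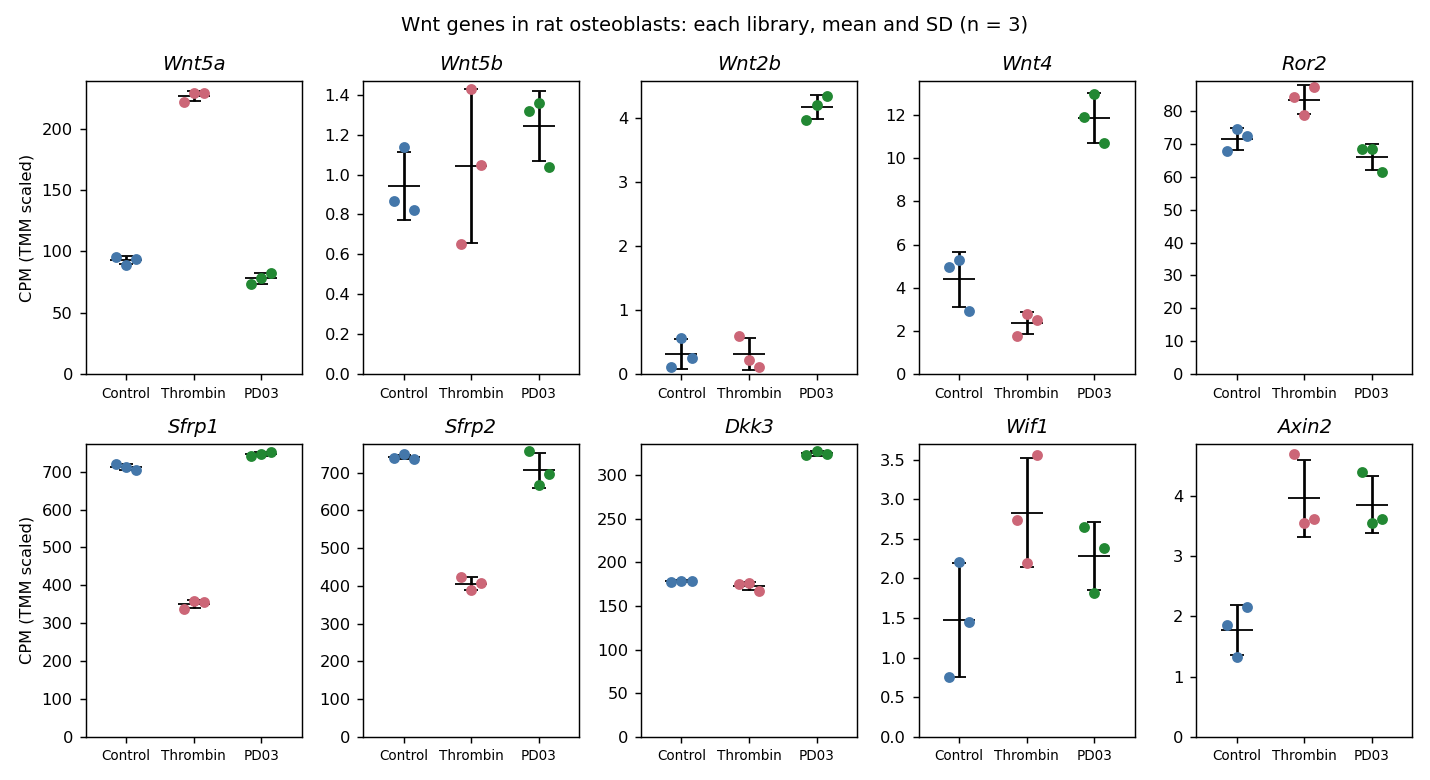
TMM-scaled CPM of the 10 Wnt genes in each of the 9 libraries, by group, with the mean and SD of 3 libraries as black bars and every axis starting at 0. Wnt5a stood at 222 to 229 CPM with thrombin and 73.8 to 95.2 CPM elsewhere, and Wnt2b was high with PD03 alone.

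The secreted antagonists Sfrp1 and Sfrp2, which bind Wnt ligands outside the cell, were the most abundant members and fell with thrombin. Sfrp1 (ENSRNOG00000017783) measured 721, 713 and 705 CPM in control, 338, 358 and 357 CPM with thrombin and 742, 746 and 753 CPM with PD03. It fell 2.03-fold with thrombin (log2 fold change -1.02, SE 0.03, adjusted p = 1.4e-26) and rose 2.13-fold from thrombin to PD03 (log2 fold change 1.09, SE 0.03, adjusted p = 4.8e-28). For PD03 against control the log2 fold change was 0.07 (SE 0.03, adjusted p = 0.10), and it turned to -0.05 when libraries were scaled by their totals.

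Sfrp2 (ENSRNOG00000009465) measured 740, 748 and 736 CPM in control, 423, 388 and 407 CPM with thrombin and 758, 667 and 696 CPM with PD03. The thrombin libraries were below all others, and control and PD03 overlapped. It fell 1.83-fold with thrombin (log2 fold change -0.87, SE 0.04, adjusted p = 3.6e-22) and rose 1.74-fold from thrombin to PD03 (log2 fold change 0.80, SE 0.04, adjusted p = 2.9e-21). For PD03 against control the log2 fold change was -0.07 (SE 0.04, adjusted p = 0.15).

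Dkk3 (ENSRNOG00000016343), a divergent Dickkopf family member, rose in the PD03 group and was not called with thrombin. It measured 177, 179 and 179 CPM in control, 175, 176 and 167 CPM with thrombin and 323, 328 and 324 CPM with PD03. Thrombin against control gave a log2 fold change of -0.05 (SE 0.04, adjusted p = 0.41). PD03 raised Dkk3 1.88-fold over thrombin (log2 fold change 0.91, SE 0.04, adjusted p = 2e-23) and 1.82-fold over control (log2 fold change 0.86, SE 0.04, adjusted p = 3.2e-22).

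Wif1 (ENSRNOG00000004476), which binds Wnt ligands directly, was low and variable, with 14, 35 and 23 counts in control, 46, 40 and 61 with thrombin and 50, 28 and 39 with PD03. In CPM the highest control library, at 2.21, lay just above the lowest thrombin library, at 2.19. Thrombin against control passed the test (log2 fold change 0.96, SE 0.29, adjusted p = 0.01), but the call was lost without Control replicate 1 (log2 fold change 0.62, adjusted p = 0.12) or Thrombin replicate 3 (0.76, adjusted p = 0.095). PD03 against control gave 0.66 (adjusted p = 0.076), a call gained without Control replicate 2 (1.07) or PD03 replicate 2 (0.80). Wif1 also overlaps LOC134479701.

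Axin2 (ENSRNOG00000055010), whose protein limits β-catenin and whose TCF/LEF matches are printed above, rose with thrombin and stayed up with PD03. It held 34, 21 and 34 counts in control, 79, 65 and 62 with thrombin and 83, 55 and 59 with PD03, which is 1.33 to 2.15 CPM in control against 3.56 to 4.70 CPM and 3.56 to 4.40 CPM. Both treated groups lay above every control library, and they overlapped each other. The rise was 2.22-fold with thrombin (log2 fold change 1.15, SE 0.23, adjusted p = 9.8e-05) and 2.18-fold with PD03 over control (log2 fold change 1.12, SE 0.23, adjusted p = 9.5e-05). PD03 against thrombin gave -0.03 (SE 0.20, adjusted p = 0.92), and an interval of this width does not show that the groups are alike.

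**Figure D2:**
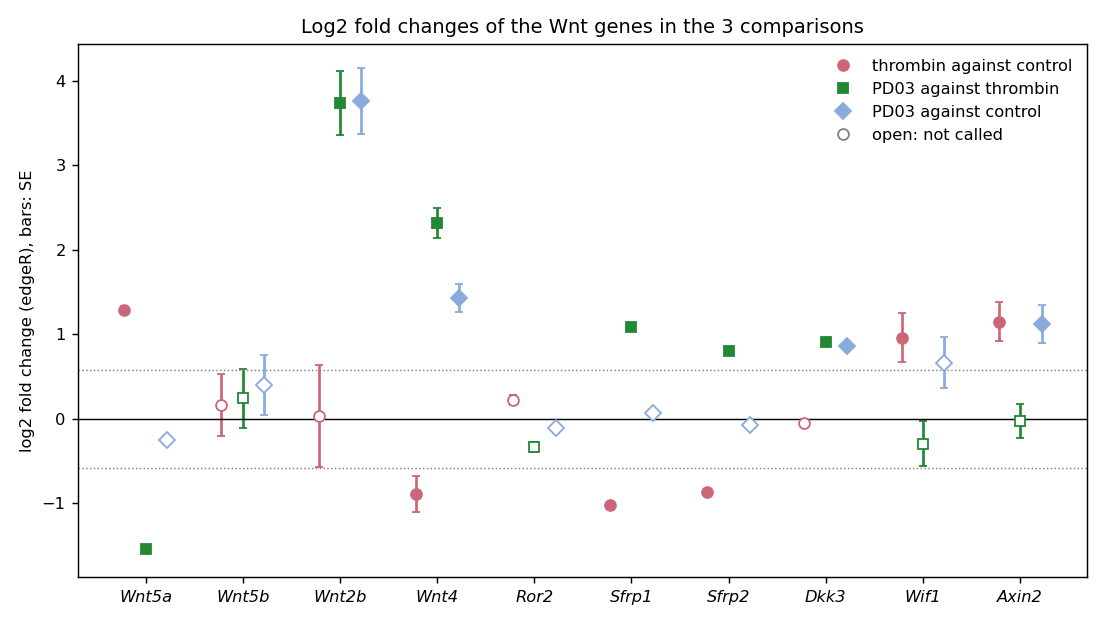
Log2 fold changes of the 10 members in the 3 comparisons from the edgeR fit, with SE as error bars, filled where called and open where not, and dotted lines at 0.58 above and below 0. Wnt5a, Sfrp1 and Sfrp2 moved in opposite directions with thrombin and with PD03 against thrombin, whereas Dkk3 and Wnt2b were called in both PD03 comparisons and not in thrombin against control.

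Over the 10 members, 3 were called higher and 3 lower in thrombin against control, where 8.06% of all genes were called, 2.62% higher and 5.44% lower. In PD03 against thrombin, 5 were higher and 1 lower, against 15.9% of all genes called, 9.61% higher and 6.31% lower. In PD03 against control, 4 were higher and 0 lower, and 8.97% of all genes were called, 4.90% higher and 4.07% lower. Wnt2b is among the members higher in both PD03 comparisons. It passed the filter only through its PD03 libraries, so a difference had to follow, and the medians below include it. These comparisons share control or thrombin libraries. Because the members were chosen with earlier results of these data known, their counts beside the shares of all genes are descriptions only. The median log2 fold change over the members was 0.09, 0.52 and 0.53 in the 3 comparisons, and -0.0060, 0.011 and -0.0039 over all genes tested. With library totals the median of all genes was -0.09 for PD03 against thrombin and -0.12 for PD03 against control, and the share of calls that were higher was 46.5% and 34.1% in place of 60.4% and 54.6%.

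Levels of different genes were compared on the deposited FPKM, which is scaled by gene length. In control the order was Sfrp2 at 387 FPKM, Sfrp1 at 172, Dkk3 at 36.7, Ror2 at 18.4, Wnt5a at 16.4 and Wnt4 at 3.70. Wif1 at 0.614, Axin2 at 0.567 and Wnt5b at 0.429 FPKM overlapped in their library ranges, and Wnt2b was lowest at 0.105. With thrombin, Wnt5a at 39.6 FPKM passed Ror2 at 21.2 and Dkk3 at 35.1 without overlap, so it stood next after Sfrp1. With PD03 it returned below Ror2, at 12.7 against 15.7 FPKM, and Wnt4 rose to 9.22.

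**Figure D3:**
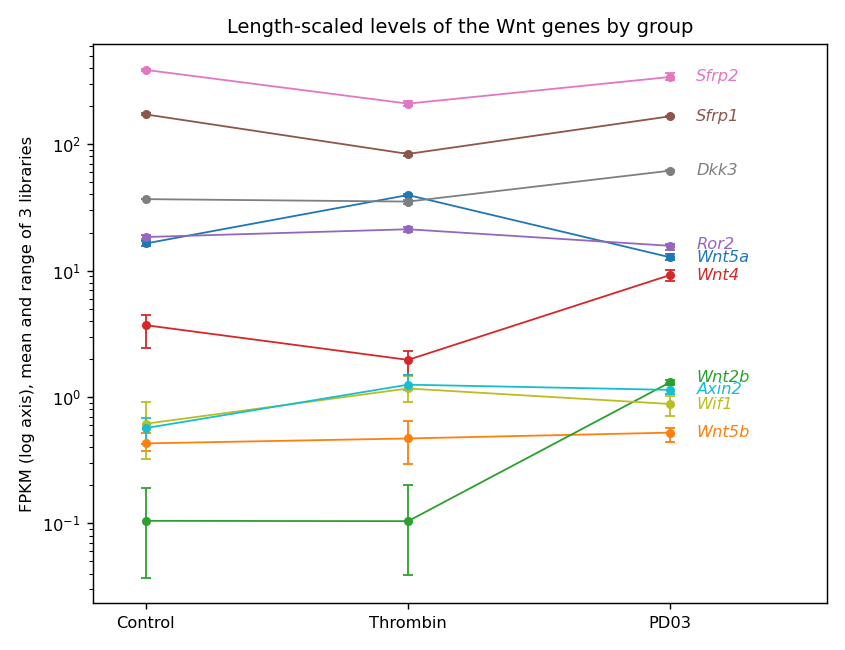
Mean FPKM of the 10 members in each group on a log axis, with bars from the lowest to the highest of 3 libraries. Sfrp2 and Sfrp1 led in all groups, and Wnt5a lay above Dkk3 and Ror2 with thrombin only.

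Added over the 16 ligand genes in the table, ligand message was 24.2 ± 1.15 FPKM in control, 49.0 ± 1.45 with thrombin and 30.7 ± 0.684 with PD03 (SD, n = 3). Wnt5a made up 67.7% ± 3.87, 80.9% ± 1.21 and 41.5% ± 2.25 of it, and Wnt4 made up 15.1%, 4.00% and 30.0%. Wnt2b took 4.26% with PD03, against 0.434% in control and 0.216% with thrombin. In FPKM the summed ligand level with PD03 was thus between the other groups but of different composition, with more Wnt4 and Wnt2b. FPKM carries no TMM adjustment and CPM no length scaling. In CPM the ligand sums of control, at 104 to 110, and PD03, at 108 to 115, overlapped, with thrombin at 241 to 251. These sums were not tested.

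The 12 antagonist genes in the table added to 601 ± 7.52 FPKM in control, 334 ± 6.86 with thrombin and 572 ± 20.9 with PD03 (SD, n = 3). Sfrp1 and Sfrp2 made up 92.9%, 87.6% and 88.5% of that. In CPM the antagonist sum was 1647 to 1666 in control, 947 to 962 with thrombin and 1758 to 1839 with PD03. The order of control and PD03 thus depended on the measure. In FPKM the ratio of summed antagonist to summed ligand message was 24.9 ± 0.889 in control, 6.84 ± 0.327 with thrombin and 18.7 ± 1.06 with PD03. The lower ratio with PD03 than in control may also depend on the measure. In CPM the PD03 antagonist sum lay above control and the ligand sums overlapped. The ratio of Sfrp1 to Wnt5a was 10.5, 2.11 and 13.1 in the same groups. Message levels do not measure secreted protein.

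**Figure D4:**
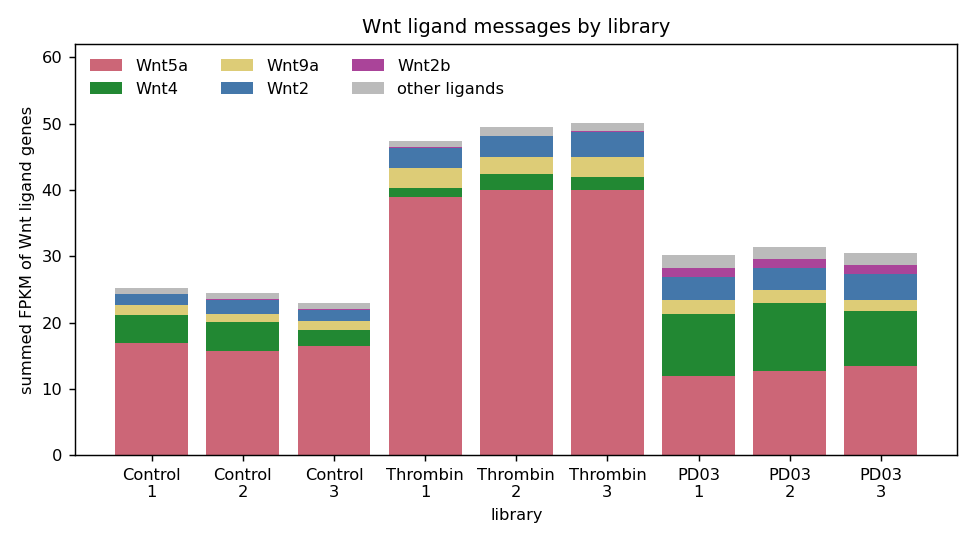
Summed FPKM of Wnt ligand genes in each library, stacked by gene, with the bars starting at 0. Wnt5a made most of the ligand message with thrombin (80.9%), and Wnt4 and Wnt2b made a larger part with PD03 (30.0% and 4.26%).

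The wider pathway lists held 79 genes beside the members, of which 74 were in the table and 55 were tested. The lists too were chosen with earlier results of these data known, so their counts are descriptions only. In thrombin against control 5 of the 55 were called higher and 8 lower, where 2.62% and 5.44% of all genes were. In PD03 against thrombin 16 were higher and 1 lower, where 9.61% and 6.31% of all genes were, and in PD03 against control 10 were higher and 2 lower, where 4.90% and 4.07% were. Of the 55 genes, 3 (Frzb, Rnf43 and Celsr3) had all 3 libraries over the filter cutoff in a single group, so they passed through the group where they are high and a difference had to follow. Sfrp4, Ptk7, Fzd1, Fzd2, Ryk, Ror1, Fzd3, Rnf43, Tcf7 and Znrf3 are named below after their values were seen. Over all 55 genes the median log2 fold change was -0.01, 0.19 and 0.17 in the 3 comparisons.

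Among the other ligands, Wnt2, Wnt9a and Wnt11 were tested, and all 3 were called higher with thrombin against control, where 2.62% of all genes were. Wnt11 passed the filter through its thrombin and PD03 libraries, with 1 control library over the cutoff. Its calls against control are therefore no independent support. Wnt2 stood at 3.06, 5.77 and 6.67 CPM in control, thrombin and PD03, Wnt9a at 4.21, 9.25 and 6.75 CPM and Wnt11 at 0.443, 1.03 and 1.37 CPM. Each was higher in PD03 against control as well, where 4.90% of all genes were. PD03 against thrombin gave no call (adjusted p = 0.28, 0.0069 and 0.37), Wnt9a being short of the fold threshold at -0.45. The Wnt11 call for thrombin was lost with DESeq2 (adjusted p = 0.053) and without Control replicate 1 (0.11), Control replicate 2 (0.18), Thrombin replicate 2 (0.085) or Thrombin replicate 3 (0.12). The Wnt9a call for PD03 against control was lost with library totals (log2 fold change 0.56).

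Of the other antagonists, Sfrp4, a further frizzled-related protein, was called lower in both PD03 comparisons, opposite in sign to Sfrp1, Sfrp2 and Dkk3 against thrombin. It stood at 19.9 CPM in control, 20.8 with thrombin and 11.8 with PD03 (log2 fold change -0.82 against thrombin, adjusted p = 8.1e-10, and -0.76 against control, adjusted p = 1.3e-08). Frzb, also of that family, stood at 1.13 CPM in control, 0.173 with thrombin and 0.233 with PD03, and was tested only through its control libraries. Dkk2 fell from 1.95 to 0.498 CPM with thrombin (log2 fold change -1.96, adjusted p = 2.9e-05) and rose to 1.32 CPM with PD03 (log2 fold change against thrombin 1.38, adjusted p = 0.0024). Dkk2 passed the filter through its control and PD03 libraries, with 0 thrombin libraries over the cutoff, so its p-values against thrombin are no independent support. Frzb and Dkk2 were low in all groups.

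Receptors did not move in 1 direction. Of 13 receptors other than Ror2, 3 were lower and 1 higher with thrombin, where 5.44% and 2.62% of all genes were. In PD03 against thrombin 5 were higher and 0 lower, where 9.61% and 6.31% of all genes were. The others were not called. The summed receptor message, Ror2 included, was 1718 to 1794 CPM in control, 2305 to 2376 with thrombin and 2001 to 2070 with PD03. Ptk7, a Wnt coreceptor, rose from 670 CPM in control to 1094 with thrombin (log2 fold change 0.71, adjusted p = 5.4e-21) and stood at 826 with PD03. For thrombin against control, Fzd1, Fzd2 and Ryk gave log2 fold changes of 0.42, 0.43 and 0.30 (adjusted p = 9.9e-12, 1.7e-09 and 5.3e-07), short of the fold threshold. Ror1 and Fzd3 were called lower there. Ror1 fell from 32.25 CPM in control to 18.6 with thrombin (log2 fold change -0.79, adjusted p = 4.3e-11). Fzd3 fell from 6.38 to 3.80 CPM (-0.74, adjusted p = 0.00037). Fzd4 stood at 45.6 CPM in control, 21.0 with thrombin and 43.8 with PD03 (log2 fold change -1.12 and then 1.07, adjusted p = 4.1e-17 and 9.9e-17), and Fzd8 rose to 11.4 CPM with PD03 from 6.66 with thrombin (0.77). R-spondins act at Lgr receptors to prolong Wnt signalling, and Kremen1 is a Dickkopf receptor. Of these 7 regulators tested, 3 were lower with thrombin and 4 higher in PD03 against thrombin, where 5.44% and 9.61% of all genes were. Rspo2 stood at 4.27, 1.58 and 5.20 CPM and Rspo1 at 33.5, 21.9 and 48.3 CPM in control, thrombin and PD03.

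Some β-catenin feedback targets were higher with PD03. Of 7 targets other than Axin2, 4 were higher and 0 lower in PD03 against thrombin, where 9.61% of all genes were higher, and 4 were higher and 0 lower in PD03 against control, where 4.90% were. Rnf43, among the 4 against thrombin, was tested through its PD03 libraries and stood at 0.431, 0.291 and 0.867 CPM in control, thrombin and PD03. Tcf7 gave -0.41 (adjusted p = 0.18) and Znrf3 -0.15 (adjusted p = 0.50) against thrombin. Nkd1 stood at 2.83, 3.17 and 9.99 CPM in control, thrombin and PD03 (PD03 against thrombin 1.66, adjusted p = 9.2e-12), and Nkd2 at 20.0, 14.3 and 50.6 CPM (1.82, adjusted p = 1.9e-23). Apcdd1 stood at 7.44, 5.40 and 13.2 CPM (1.30, adjusted p = 2.2e-11). Tnfrsf19 was higher in both treated groups, at 9.06 and 11.2 CPM against 5.14 CPM in control. Of 11 intracellular genes, 0 were called in any comparison, by edgeR or by DESeq2, with log2 fold changes from -0.48 to 0.35. Of all genes 8.06%, 15.9% and 8.97% were called in the 3 comparisons, and for 11 genes a count of 0 is near these shares. In the 3 comparisons 3, 5 and 6 of them had an unadjusted p under 0.05. The adjusted p was under 0.05 for 3, 3 and 6 of them, all short of the fold threshold. Of 8 planar polarity genes, Celsr2 was higher in PD03 against thrombin (1.06, adjusted p = 0.00026), where 9.61% of all genes were higher. Celsr3 was higher there too (1.06) and passed the filter through its PD03 libraries. In thrombin against control 0 of the 8 were called by edgeR or DESeq2, which for 8 genes is near the 8.06% of all genes called. There 3 had an adjusted p under 0.05 and were short of the fold threshold, with Prickle1 the largest at 0.56 (adjusted p = 1.2e-11). The Celsr3 call against thrombin was lost with DESeq2 (adjusted p = 0.053) and without Thrombin replicate 1 (0.098) or PD03 replicate 2 (0.063).

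**Figure D5:**
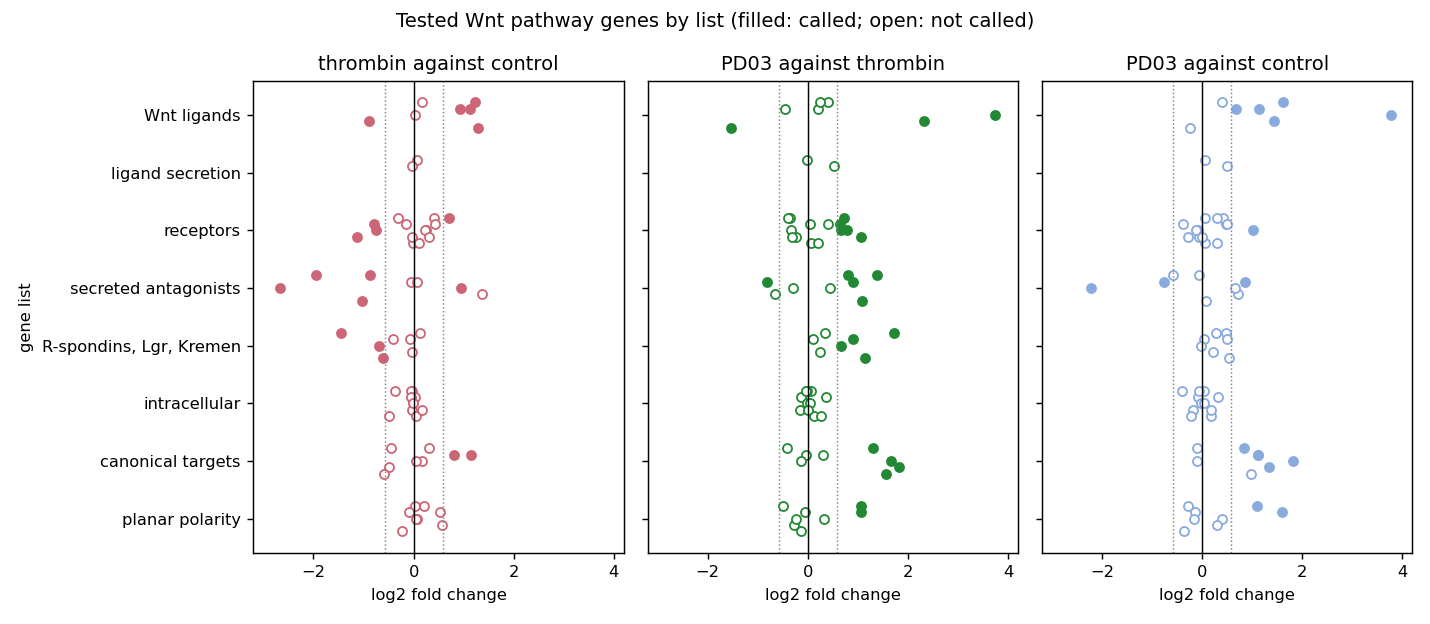
Log2 fold change of every tested gene in 8 Wnt pathway lists, members included, with 1 panel per comparison, filled where called and open where not. In PD03 against thrombin 21 of 65 genes were called higher and 2 lower, where 9.61% and 6.31% of all genes were. The higher genes include Wnt2b, Rnf43 and Celsr3, which passed the filter through their PD03 libraries. None of the 11 intracellular genes was called, where 15.9% of all genes were.

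Markers of other cell types also moved with the groups. The summed smooth muscle list lay at 627 to 731 CPM in control, 582 to 619 with thrombin and 1583 to 1617 with PD03, with 3 of 4 genes higher in PD03 against thrombin, where 9.61% of all genes were higher and 6.31% lower. The tendon list lay at 55.7 to 58.7, 41.0 to 48.0 and 190 to 198 CPM, with 2 of 3 higher and 1 lower. Tnmd made most of that sum, at 46.2, 24.8 and 176 CPM in control, thrombin and PD03. Scx went the other way, at 4.81, 12.8 and 7.75 CPM, and Mkx stood at 6.56, 6.38 and 10.4 CPM. The myeloid list lay at 20.3 to 23.5, 29.0 to 32.7 and 17.3 to 18.5 CPM, while Ptprc, its defining marker, held 0 to 6 counts in any library. Most of that sum was Cd14, at 20.5, 29.3 and 15.7 CPM in control, thrombin and PD03, whereas Csf1r stood at 0.440, 0.746 and 1.24 CPM. The endothelial list lay at 7.89 to 8.90, 7.29 to 9.75 and 12.0 to 14.0 CPM, and the chondrocyte list at 91.5 to 102, 69.2 to 75.2 and 79.7 to 87.4 CPM. Col2a1 made most of the chondrocyte sum, at 84.4, 49.2 and 56.4 CPM. Of 5 tested chondrocyte genes, 3 were called higher and 1 lower with thrombin, where 2.62% and 5.44% of all genes were. The adipocyte list lay at 1.52 to 1.96, 0.494 to 1.11 and 1.38 to 1.88 CPM, lowest with thrombin, with Adipoq at 0 to 1 counts. The part of these lists in the Wnt results was not tested.

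Of 12368 candidate genes, the 5 most like Wnt5a over the 9 libraries by Pearson correlation included Spp1 (0.998), Galnt10 (0.997), Reln (0.995) and Sertad4 (0.994). Spp1, the matrix protein osteopontin, stood at 63.7, 185 and 53.1 CPM in control, thrombin and PD03, and Reln, an extracellular glycoprotein, at 4.30, 41.0 and 3.06 CPM. Among the members, Sfrp1 had the strongest inverse pattern (-0.991), followed by Sfrp2 (-0.969), and Ror2 the closest direct one (0.871). By Spearman correlation 31 genes, with ties, stood at or above the lowest of the top 5 values and 0 of these 5 genes was among them. These are descriptions over 9 libraries that fall into the same 3 groups.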

How the data were processed

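Reads were aligned and counted by the authors. Their methods name HISAT2, featureCounts and a Rnor_6.0 genome, whereas the submitters' processing notes name HISAT2, HTSeq 0.13.5 and mRatBN7.2, and the difference was not resolved. No source used here states the strandedness or the annotation release. The authors deposited raw counts per gene and library, and FPKM values, which equal counts scaled by gene length and library total.

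Counts were analysed with edgeR 4.0.16 in R 4.3.3: filterByExpr (minimum count 10), TMM scaling, 1 quasi-likelihood model over 9 libraries and Benjamini-Hochberg adjustment over 13256 genes. A call needed an adjusted p under 0.05 and an absolute log2 fold change over 0.58. FPKM was used for levels and sums. The code was tested on simulated data. DESeq2 1.42.0 and limma 3.58.1 were alternatives. Members and lists were chosen with earlier results of these data known. The 15 named pathway genes beside the members were those with the largest called change in any comparison, with group means reaching 1 CPM and with libraries of the groups apart.

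Chi-square per degree of freedom between replicates was 1.82 to 4.04, above counting noise. In each group replicate 1 stood further from replicates 2 and 3 (3.06 to 4.04) than these did from each other (1.82 to 2.15). A PD03 dose of 0.1 mM appears in a label protocol for brief phosphorylation assays. Figures were drawn with matplotlib. Wnt3a, Wnt7a, Wnt8a, Dkk1 and Sp5 were not analysed here. Of the 5 genes most like Wnt5a, 1 is not reported here.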

Additional observations from a re-analysis of the deposited data

How the results depend on the processing

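No member changed direction where called under any alternative, and of the members' values under the alternatives 631 kept their side of the threshold, 15 lost a call and 5 gained one. Members called in thrombin against control fell from 6 to 3 with a log2 fold change over 1 and to 3 with glmTreat. Axin2 lost its calls with glmTreat (adjusted p = 0.055 for thrombin and 0.071 for PD03 against control). Over the pathway lists, 19 genes were called in thrombin against control, 33 with no fold threshold, 9 over 1, 10 with glmTreat and 12 on log2(FPKM + 1). In PD03 against thrombin the counts were 23, 40, 14, 14 and 13, and in PD03 against control 16, 38 with no threshold, 9 with glmTreat and 8 on log2(FPKM + 1). Over all genes, calls in thrombin against control were 1068, 3808 with no threshold, 505 over 1, 460 with glmTreat and 543 on log2(FPKM + 1), in PD03 against thrombin 2110, 6608, 935, 1051 and 1254, and in PD03 against control 1189, 5289, 519, 499 and 676. The added 1 compresses low values by construction. On log2(FPKM + 1) the higher share of calls was 42.8% and 36.2% in the comparisons of PD03 with thrombin and with control. Deviations of same-numbered libraries from their group means were nearly uncorrelated over all genes (r -0.05 to 0.05 over 9 pairs). With 3 libraries per group this cannot exclude a shared origin or batch by number. With a replicate block 6, 6 and 4 members, 19, 23 and 16 pathway genes and 1067, 2103 and 1187 genes in all were called. Depth limits Wnt5b, Wnt2b, Wif1, Axin2 and, with thrombin, Wnt4. By Spearman correlation 0 of the 5 genes named as most like Wnt5a stayed among the top 5.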
